A study of Homo sapiens with 6 samples.

Results

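LINC genes are long noncoding RNA genes that carry a serial number in place of a name, and 140 of the 861 LINC features in the table, under 139 symbols, were expressed by the rule used here. THP-1 cells, a human monocytic leukaemia line, were compared by RNA-seq after treatment with PMA (3 libraries) and without treatment (3 libraries). PMA, a phorbol ester, activates protein kinase C and drives this line toward a macrophage-like state. Both groups carried the wild-type genotype label and no other agent, and the study describes the libraries as biologically independent experiments of a single line. No source used here states the PMA dose or how long the cells were treated. A LINC feature was kept where its FPKM, the fragments scaled to gene length and library size, was 0.5 or more in all 3 libraries of at least 1 group. Members were thus selected on the same FPKM values that are described below. Of the 140, 80 met the minimum in both groups, 48 in the PMA group only and 12 in the untreated group only. LINC02256 stands for 2 features.

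Long noncoding RNAs lack a long open reading frame, and many of them are spliced and polyadenylated like mRNAs. Some act in the nucleus on chromatin or on the genes beside them, others act as scaffolds or bind microRNAs, and for most LINC genes no role is known. Many are switched on in particular cell types, and in monocytes and macrophages several long noncoding RNAs have been tied to inflammatory and interferon responses. By definition a LINC gene lies between protein-coding genes. In the deposited coordinates, however, 18 of the 140 overlapped a protein-coding gene. GENCODE gave 132 of them the type lncRNA and 7 a transcribed pseudogene type, and 1 was not matched there. They were spread over the genome with 26 on chromosome 1, and the median gene spanned 9.98 kb.

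The library totals were 64361886 to 65698834 counts with PMA and 61547700 to 88227830 counts in untreated cells, so depth was similar apart from untreated replicates 1 and 2, which were deeper. Mitochondrially encoded genes took 5.8 to 6.29% of the counts with PMA and 4.33 to 7.45% in untreated cells. All 10 monocyte and macrophage markers had reads, with summed levels of 478.3 to 550.1 FPKM with PMA and 370.1 to 411.7 FPKM in untreated cells, although CD14 was low (mean 0.708 FPKM with PMA and 0.336 FPKM in untreated cells) and MPO was nearly absent with PMA (mean 0.0743 FPKM, against 0.872 FPKM in untreated cells). Of the 8 with at least 0.5 FPKM in every library of both groups, 4 were called higher, 2 lower and 2 not called. CSF1R, which binds a macrophage growth factor, averaged 123.8 FPKM with PMA and 3.80 FPKM in untreated cells. The granule protein gene AZU1 averaged 47.8 FPKM with PMA and 146.6 FPKM in untreated cells, and CD33 9.87 FPKM with PMA and 13.6 FPKM in untreated cells, both called lower. LYZ (1.30 FPKM with PMA and 1.12 FPKM in untreated cells) and ITGAM (2.10 FPKM with PMA and 2.15 FPKM in untreated cells) were not called. Of the lymphoid markers, CD79A averaged 0.560 FPKM with PMA and 0.380 FPKM in untreated cells, and NCAM1 4.83 FPKM with PMA and 2.30 FPKM in untreated cells. HBB and ITGA2B were near 0. The 4 epithelial and fibroblast markers analysed summed to 1.23 to 2.83 FPKM with PMA and 0.642 to 2.83 FPKM in untreated cells. The part of other cells in the results below was not tested, and fewer cells of a type and less RNA per cell cannot be told apart in bulk RNA.

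Start regions are shown for members on which the results below turn, each 5′ to 3′ on the strand of the LINC gene. The windows of 300 bases are from RefSeq (GRCh38.p14) and hold 250 bases before the annotated start and 50 after it. LINC00622 had the largest rise among members present in both groups, and its window, chr1:119599242-119599541 on the minus strand, held only 33.3% G and C, with the letters TATAAA in capitals from base 32. LINC01547 had the next largest rise. Its window, chr21:44939864-44940163 on the minus strand, held 76.3% G and C, and the capitals mark the 70 bases between the starts of LINC01547 and SLX9, which runs the other way, in the deposited table. The deposited start of LINC01547 lies 28 bp from the RefSeq start on which the window is set. LINC02169 had the largest fall, and its window lies at chr16:54270830-54271129 on the minus strand with 47.3% G and C. LINC01126 met the minimum with PMA only and starts beside ZFP36L2, and in its window, chr2:43226961-43227260 on the plus strand, the capitals mark the C/EBP letters TTGCNNAA from base 92.
LINC00622: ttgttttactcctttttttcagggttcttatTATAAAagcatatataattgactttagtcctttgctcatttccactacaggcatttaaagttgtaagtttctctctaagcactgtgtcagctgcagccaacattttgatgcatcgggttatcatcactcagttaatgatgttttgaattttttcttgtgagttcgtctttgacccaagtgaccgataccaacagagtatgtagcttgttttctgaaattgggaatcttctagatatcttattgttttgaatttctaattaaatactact
LINC01547: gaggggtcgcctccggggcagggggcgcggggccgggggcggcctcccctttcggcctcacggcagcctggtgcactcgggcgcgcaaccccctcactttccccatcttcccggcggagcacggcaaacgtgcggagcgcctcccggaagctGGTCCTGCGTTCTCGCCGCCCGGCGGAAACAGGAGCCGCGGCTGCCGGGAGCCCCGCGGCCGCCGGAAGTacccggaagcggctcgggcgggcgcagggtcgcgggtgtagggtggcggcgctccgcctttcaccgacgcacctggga
LINC02169: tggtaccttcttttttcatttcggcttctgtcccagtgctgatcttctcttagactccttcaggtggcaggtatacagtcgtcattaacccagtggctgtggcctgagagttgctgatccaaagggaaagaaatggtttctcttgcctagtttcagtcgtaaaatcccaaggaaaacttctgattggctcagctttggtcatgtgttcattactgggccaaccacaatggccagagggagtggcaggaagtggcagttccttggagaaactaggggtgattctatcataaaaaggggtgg
LINC01126: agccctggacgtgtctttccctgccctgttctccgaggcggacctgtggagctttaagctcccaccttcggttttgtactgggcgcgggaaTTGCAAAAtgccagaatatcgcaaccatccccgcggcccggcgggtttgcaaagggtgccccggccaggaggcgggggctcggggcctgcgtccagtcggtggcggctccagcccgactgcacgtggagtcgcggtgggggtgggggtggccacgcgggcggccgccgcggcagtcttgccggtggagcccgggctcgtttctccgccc

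A window was found for 86 of the 139 symbols, and for 55 members it lay within 300 bp of the start in the deposited table. The letters of 8 motifs were searched on both strands. AP-1 proteins act downstream of protein kinase C, and the AP-1 letters TGACTCA were in 2 of the 55 windows (3.64%), against 4.95% of all 35116 windows on the main chromosomes. The cyclic AMP response letters TGACGTCA were in 1 of 55 (1.82%, against 1.85%). The C/EBP letters TTGCNNAA were in 8 of 55 (14.5%, against 10.5%), which were 1 of the 12 members that rose, 2 of the 8 that fell, 1 of the 18 not called, 3 of the 13 with PMA only (LINC01352, LINC01140 and LINC01126) and 1 of the 4 with untreated cells only. GAGGAAG, bound by the myeloid factor PU.1, was in 11 of 55 (20%, against 13.6%), in the same order 4 of 12, 2 of 8, 3 of 18, 0 of 13 and 2 of 4. GAAA repeated after any 2 bases, the core of interferon response elements, was in 4 of 55 (7.27%, against 3.57%), namely LINC01305, LINC02642, LINC01686 and LINC00623. GCGNGGGCG (EGR) was in 4 of 55 (7.27%, against 9.43%), TATAAA in 7 (12.7%, against 11.5%), and GGG followed after any 5 bases by CC, a loose form of the NF-kB site, in 31 (56.4%, against 58.7%). The last pattern can overlap GCGNGGGCG. These shares describe letters in the windows and nothing about binding.

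Expressed LINC genes were transcribed at low levels in both conditions. Over the 6 libraries their median was 1.07 FPKM, against 1.11 FPKM for the 1437 other lncRNA features that met the same minimum and 6.37 FPKM for the 11814 protein-coding features. Of the 140, 66 averaged under 1 FPKM, 15 over 5 FPKM and 5 over 10 FPKM. Their summed counts were 0.129 to 0.134% of each PMA library and 0.0897 to 0.0975% of each untreated library. With PMA, 148 LINC features reached 0.5 FPKM in each library, and in untreated cells 101 to 115 did. The split into 57.1% in both groups, 34.3% with PMA only and 8.57% untreated only was close to that of the other lncRNA features (56.6%, 32.9% and 10.5%), whereas 91.5% of protein-coding features met the minimum in both groups. This split is set by the rule and was not tested. Close to the minimum, LINC01446 entered on a lowest FPKM of 0.501 and LINC01711 on 0.503, and LINC01391 with 0.491 and LINC02561 with 0.490 stayed out.

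**Figure D1:**
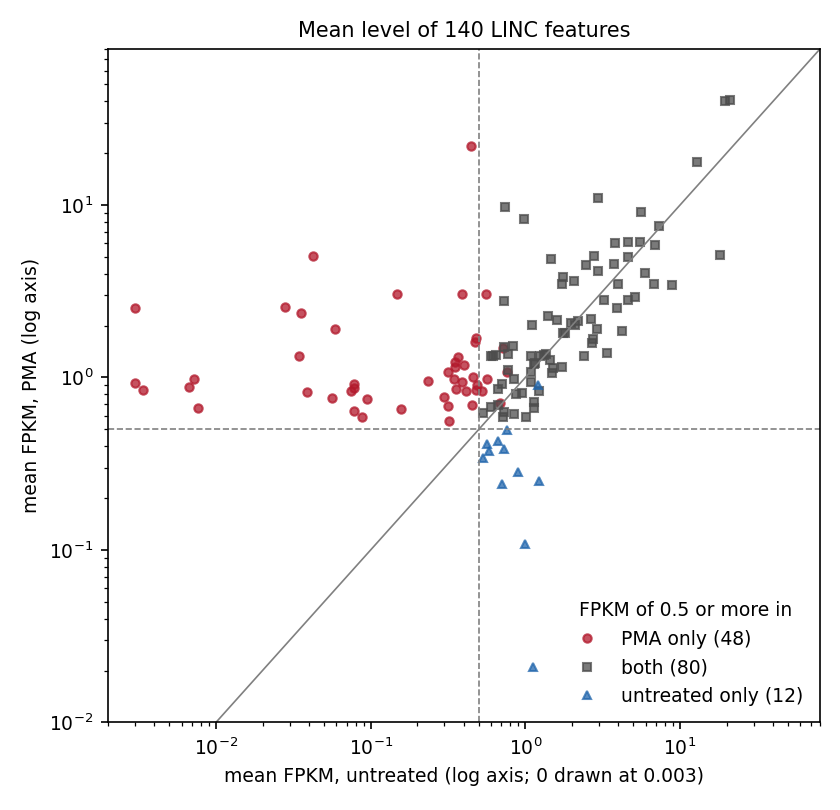
Mean FPKM of the 140 LINC features with PMA (vertical, log axis) against untreated (horizontal, log axis, 0 drawn at 0.003), each point 1 feature, by the group in which it met the minimum of 0.5 FPKM in every library. The dashed lines mark 0.5 FPKM and the diagonal equal means; 48 points met the minimum with PMA only, 80 in both groups and 12 in untreated cells only.

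The most abundant members were LINC00623 and LINC01388, and both rose with PMA. LINC00623 lies on chromosome 1 beside PPIAL4A and had 49.7, 36.9 and 34.9 FPKM with PMA and 22.9, 21.4 and 19 FPKM in untreated cells. This was a change of 0.93 ± 0.14 on the log2 scale (SE, adjusted p = 0.000568). Its longest transcript matches LINC00869 over 99.1% of its length, so reads may have been shared. LINC00869 had 3.62 ± 0.540 FPKM with PMA and 2.06 ± 0.242 FPKM in untreated cells (SD, n = 3 each) and its own log2 fold change was 0.81. LINC01388, on chromosome 9 near FOXD4, had 38, 39.9 and 42.8 FPKM with PMA and 22.4, 18.7 and 17.3 FPKM in untreated cells, and the 3 PMA libraries all lay above the untreated ones. On the log2 scale LINC01388 changed by 1.04 ± 0.14 (SE, adjusted p = 0.000242). The LINC02256 feature ENSG00000261064 came next with 17.2, 19 and 16.8 FPKM with PMA and 15, 14.7 and 8.94 FPKM in untreated cells. The groups did not overlap, yet it was not called (log2 fold change 0.45 ± 0.19 (SE), adjusted p = 0.0648). LINC01410 overlapped between the groups, with 7.88, 7.53 and 7.20 FPKM with PMA and 6.75, 8.14 and 7.16 FPKM in untreated cells and a log2 fold change of 0.03 ± 0.10 (SE). LINC00482 likewise overlapped, with 6.92, 4.93 and 5.71 FPKM with PMA and 8.21, 7.20 and 5.34 FPKM in untreated cells. LINC00674, a transcribed pseudogene in GENCODE, had 8.72, 9.42 and 9.12 FPKM with PMA and 5.18, 5.48 and 6.11 FPKM in untreated cells and was called higher (log2 fold change 0.69 ± 0.12 (SE), adjusted p = 0.00112).

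Among the 80 members that met the minimum in both groups, 26 rose and 17 fell with PMA and 37 were not called, at an adjusted p under 0.05 in edgeR's quasi-likelihood test over all 14750 features that met the minimum in at least 1 group. The called shares were 32.5% higher and 21.3% lower. Of the 12619 features of any type that met the minimum in both groups, 28.3% were called higher and 35.2% lower. The members that rose were thus near the background share, and those that fell made up a smaller share than the background. The 813 other lncRNA features gave 251 higher and 145 lower (30.9% and 17.8%), a split close to that of the LINC members. The median log2 fold change was 0.05 for the 80 members, 0.18 for the other lncRNA features and -0.08 for all features. Changes of at least 2-fold were called in 11 of the 80 members upward and 4 downward. Such changes were called in 1242 and 1108 of all 12619 features and in 115 and 58 of the 813 other lncRNA features. For 52 of the 80 the FPKM of the PMA libraries did not overlap that of the untreated libraries, and for 28 it did. The same was not counted over all features, so it cannot be read as a trait of the members. Replicates of a member varied by a median 10.1% with PMA and 13.3% in untreated cells (coefficient of variation of FPKM). Of the 43 called members, 11 have a near-identical transcript under another gene identifier, and their reads may have been split by the counting. For LINC00106 and LINC00888 that identifier carries the same symbol. The transcripts compared for LINC00680, LINC00674 and LINC01145 were only 181, 160 and 143 nt long. Whether reads were split was not tested.

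**Figure D2:**
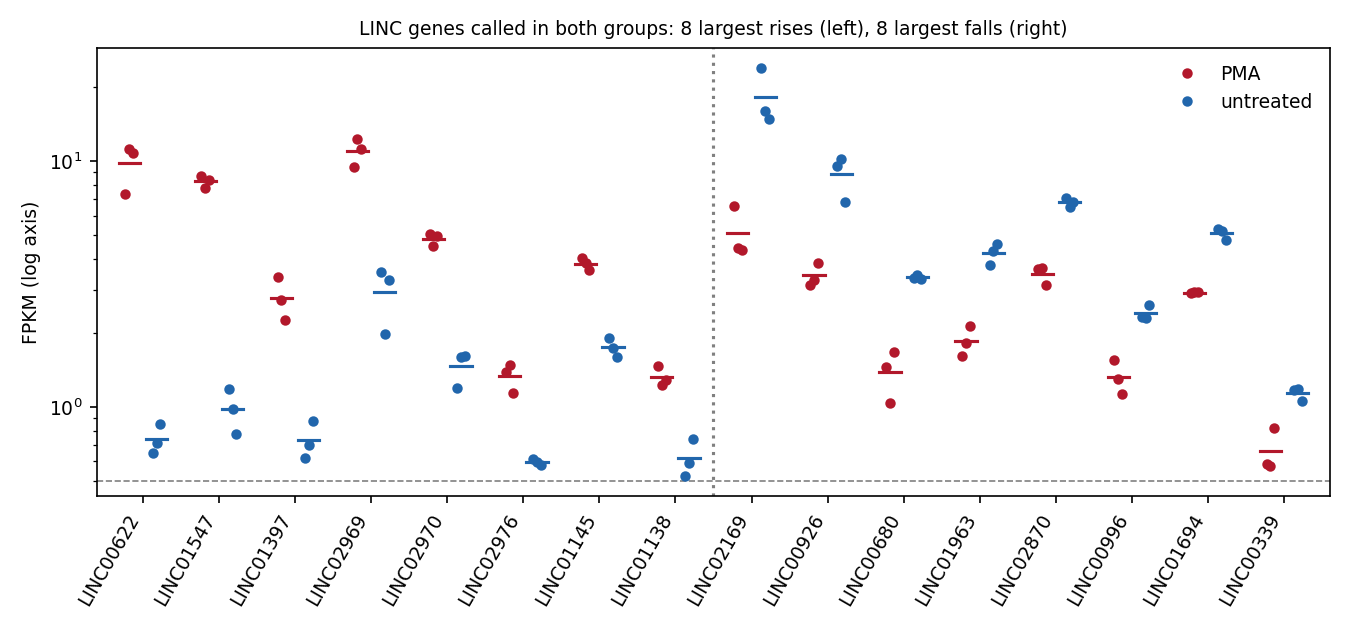
FPKM (log axis) in each library of 16 called members, the 8 that rose most and the 8 that fell most, PMA left of untreated for each gene, with points for libraries and bars for means of 3. The dashed line marks the minimum of 0.5 FPKM; in all 16 genes the groups are separate.

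The largest rise was that of LINC00622, an intergenic gene on chromosome 1. It had 7.35, 11.2 and 10.8 FPKM with PMA and 0.652, 0.712 and 0.852 FPKM in untreated cells, and the lowest PMA library was far above the highest untreated one. edgeR gave LINC00622 a log2 fold change of 3.71 ± 0.22 (SE, adjusted p = 3.47e-06). The fold was 13.1. Its nearest protein-coding gene, the zinc finger gene ZNF697, lies 20.1 kb away on the same strand and also rose, with 27.6, 29.6 and 29.1 FPKM with PMA and 9.28, 9.37 and 8.60 FPKM in untreated cells. LINC01547 rose 8.35-fold, with 8.68, 7.79 and 8.35 FPKM with PMA and 1.18, 0.979 and 0.777 FPKM in untreated cells. The log2 fold change was 3.06 ± 0.15 (SE, adjusted p = 1.33e-06). Its deposited start is 71 bp from that of SLX9, which is named for a ribosome assembly factor of yeast and runs in the other direction, and SLX9 fell to 8.31, 6.64 and 5.91 FPKM with PMA, against 13.3, 15.6 and 13.5 FPKM in untreated cells. On its other side lies ITGB2, the integrin beta chain of leukocytes, which was looked at after its values were seen and rose, with 161, 140.2 and 143 FPKM with PMA and 21.4, 20.9 and 18.2 FPKM in untreated cells. Of the 2 flanking genes, LINC01547 moved with ITGB2 and against SLX9.

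LINC01397, beside the ubiquitin-like gene UBL4B on chromosome 1, had 3.38, 2.71 and 2.25 FPKM with PMA and 0.621, 0.699 and 0.876 FPKM in untreated cells. This was a change of 1.90 ± 0.25 on the log2 scale (SE, adjusted p = 0.000249). LINC02969, on chromosome 2 near ANKRD36B, had 9.47, 12.3 and 11.2 FPKM with PMA and 3.55, 1.99 and 3.27 FPKM in untreated cells, with replicate 2 of the untreated cells lowest. On the log2 scale LINC02969 changed by 1.89 ± 0.21 (SE, adjusted p = 0.000104). It shares 88.2% of its longest transcript with LINC00342, which rose less (log2 fold change 0.40 ± 0.11 (SE)) at 6.10 ± 0.242 FPKM with PMA and 4.59 ± 0.651 FPKM in untreated cells (SD, n = 3 each). LINC02970, on chromosome 20, had 5.05, 4.50 and 4.95 FPKM with PMA and 1.19, 1.60 and 1.62 FPKM in untreated cells and rose 3.26-fold. LINC02976, LINC01145 and LINC01138 rose 2.23-, 2.17- and 2.12-fold at mean levels of 1.34, 3.83 and 1.33 FPKM with PMA, against 0.596, 1.75 and 0.620 FPKM in untreated cells. LINC01145 and LINC01138 lie on chromosome 1. The longest transcript of LINC01145 in GENCODE, of only 143 nt, matches 15 other gene identifiers, LINC01138 among them. The other 18 members called higher had log2 fold changes from 0.36 (LINC01128) to 1.04 (LINC01624). Among them LINC00963, studied mainly in carcinomas, had 4.62, 4.30 and 4.62 FPKM with PMA and 2.06, 2.83 and 2.53 FPKM in untreated cells, and LINC01426, which lies 2.92 kb from the myeloid transcription factor gene RUNX1, only just passed (adjusted p = 0.0494).

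The largest fall was that of LINC02169 on chromosome 16, the fourth most abundant member. It had 6.57, 4.41 and 4.37 FPKM with PMA and 23.9, 15.9 and 14.8 FPKM in untreated cells, and replicate 1 was highest in both groups. edgeR gave LINC02169 a log2 fold change of -1.83 ± 0.24 (SE, adjusted p = 0.00026). Its nearest protein-coding gene is IRX3, a homeobox transcription factor 12.4 kb away on the same strand, and IRX3 fell to 10.5, 8.88 and 10.5 FPKM with PMA, against 43.3, 36.8 and 31.1 FPKM in untreated cells. LINC00926, known in blood as a B cell transcript, had 3.13, 3.29 and 3.87 FPKM with PMA and 9.52, 10.2 and 6.82 FPKM in untreated cells. The log2 fold change was -1.37 ± 0.16 (SE, adjusted p = 0.000115). Its neighbour TCF12, an E protein transcription factor, moved the other way, with 30.5, 37.3 and 36.2 FPKM with PMA and 12.6, 13.6 and 12.4 FPKM in untreated cells. LINC00680 had 1.45, 1.04 and 1.68 FPKM with PMA and 3.35, 3.44 and 3.31 FPKM in untreated cells, a log2 fold change of -1.27. Its transcript of 181 nt has near-identical matches under 3 other gene identifiers, among them another LINC00680. LINC01963, near the DNA repair gene XRCC5 on chromosome 2, had 1.60, 1.82 and 2.14 FPKM with PMA and 3.79, 4.32 and 4.59 FPKM in untreated cells, a log2 fold change of -1.20.

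LINC02870 and LINC01694 fell with little spread between replicates. LINC02870 had 3.63, 3.67 and 3.12 FPKM with PMA and 7.09, 6.50 and 6.80 FPKM in untreated cells. LINC01694, on chromosome 21 by the folate carrier gene SLC19A1, had 2.90, 2.93 and 2.92 FPKM with PMA and 5.31, 5.21 and 4.79 FPKM in untreated cells. This was a change of -0.82 ± 0.08 on the log2 scale (SE, adjusted p = 6.21e-05). SLC19A1 fell as well, with a log2 fold change of -1.87 ± 0.10 (SE). LINC00996, which sits in the GIMAP cluster of lymphoid GTPase genes, had 1.55, 1.30 and 1.13 FPKM with PMA and 2.33, 2.31 and 2.59 FPKM in untreated cells (log2 fold change -0.87), while its neighbour GIMAP8 was not called. LINC00339 had 0.586, 0.572 and 0.824 FPKM with PMA and 1.17, 1.18 and 1.06 FPKM in untreated cells (log2 fold change -0.77, adjusted p = 0.0089). The other 9 members called lower had log2 fold changes between -0.77 (LINC02449) and -0.46 (LINC02987). LINC00467, from which a small mitochondrial protein has been described in other cells, was not called, with 0.988, 1.32 and 1.11 FPKM with PMA and 1.36, 1.46 and 1.73 FPKM in untreated cells (log2 fold change -0.42 ± 0.17 (SE), adjusted p = 0.0583).

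For the 48 members that met the minimum with PMA only, and the 12 with untreated cells only, the difference follows from the rule and the values are given with no test. LINC01160 stood above the rest, with 23.9, 21.2 and 21.1 FPKM with PMA and 0.584, 0.239 and 0.508 FPKM in untreated cells. It overlaps RAP1A, a small GTPase gene on the opposite strand with 81.2, 78.6 and 74.6 FPKM with PMA and 55.6, 53.8 and 50.6 FPKM in untreated cells. Since the sources used here do not state that the counting used strand, reads of the pair cannot be told apart. LINC02244 had 4.78, 5.59 and 4.74 FPKM with PMA and 0, 0 and 0.126 FPKM in untreated cells, on 330 counts with PMA and 3 counts in untreated cells. LINC00565 had 2.89, 3.15 and 3.12 FPKM with PMA and 0.195, 0.127 and 0.121 FPKM in untreated cells, and its neighbour C13orf46, 24.7 kb away, was also all but absent without PMA (1.86, 2.11 and 2.53 FPKM with PMA and 0.153, 0.123 and 0.0751 FPKM in untreated cells). LINC02508 had 2.97, 2.95 and 3.21 FPKM with PMA and 0.332, 0.527 and 0.310 FPKM in untreated cells. LINC02968 had 3.25, 2.56 and 3.28 FPKM with PMA and 0.396, 0.843 and 0.440 FPKM in untreated cells, and 1 untreated library was above the minimum. LINC01230 had 3.13, 2.02 and 2.59 FPKM with PMA and 0.0160, 0.0577 and 0.0104 FPKM in untreated cells and lies 1.22 kb from DMRT2, a transcription factor gene.

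**Figure D3:**
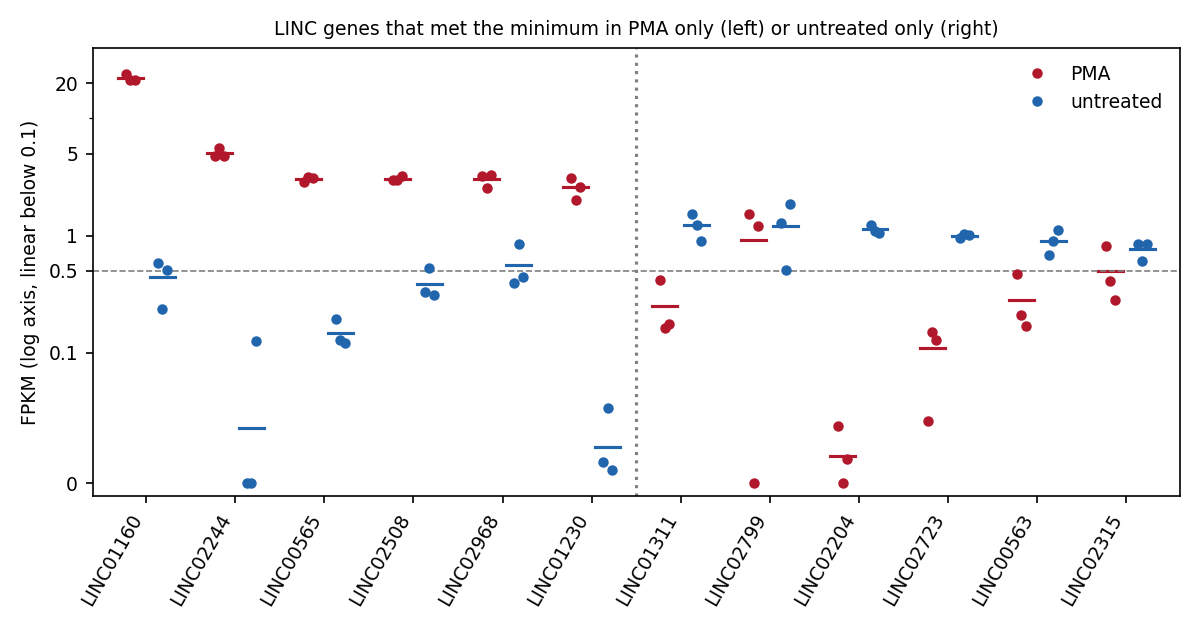
FPKM (log axis, linear below 0.1) in each library of the 6 most abundant members that met the minimum with PMA only and the 6 with untreated cells only, PMA left of untreated for each gene, with points for libraries and bars for means of 3. LINC01160 reached 21.1 to 23.9 FPKM with PMA, and LINC02799 and LINC02315 overlap between groups.

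Some PMA-only members had almost no reads in untreated cells. LINC01283 and LINC01711 had 0 counts in all 3 untreated libraries and 402 and 183 counts with PMA, at least 39.1-fold and 17.8-fold higher if a group total of 12 counts is taken as the floor. With 12 counts or fewer in untreated cells there were 8 such members, among them LINC02898 (748 counts with PMA, 4 in untreated cells), LINC01010 (747 and 10), LINC02454 (552 and 4) and LINC00487 (438 and 4). LINC01914 and LINC02898 lie 738 bp apart on the same strand of chromosome 2 and averaged 2.36 and 0.846 FPKM with PMA, against 0.0352 and 0.00336 FPKM in untreated cells. They share the neighbour PKDCC, a secreted kinase gene, which rose (log2 fold change 2.48 ± 0.19 (SE)). LINC00487 lies 109 kb from CMPK2, an interferon-stimulated gene whose own log2 fold change was 4.33, and LINC01010 lies 25.2 kb from the kinase gene SGK1, at 4.29. These neighbours were named with their direction known. SGK1, and C13orf46 above, met the minimum with PMA only, which favours their rise. AKAP17A near LINC02968 and MID1IP1 near LINC01283 were not called (log2 fold changes 0.20 and -0.22). MSRB3 near LINC02454 and TRIML2 near LINC02508 did not meet the minimum. Counts over all neighbours are given below. At the other end, LINC00174, LINC02361 and LINC02936 also counted as PMA only, yet their FPKM overlapped between the groups.

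The 12 members with untreated cells only were all low, from 0.534 to 1.22 FPKM on average in untreated cells. LINC02204 had 0.0440, 0 and 0.0185 FPKM with PMA and 1.24, 1.10 and 1.05 FPKM in untreated cells, and LINC02723 had 0.0478, 0.151 and 0.128 FPKM with PMA and 0.954, 1.04 and 1.01 FPKM in untreated cells. LINC01311 had 0.419, 0.162 and 0.175 FPKM with PMA and 1.53, 1.24 and 0.903 FPKM in untreated cells and lies 2.73 kb from the citrate carrier gene SLC25A1, which fell (log2 fold change -1.39 ± 0.14 (SE)). LINC00563 had 0.470, 0.211 and 0.170 FPKM with PMA and 0.678, 0.896 and 1.11 FPKM in untreated cells. LINC02799, by contrast, had 1.52, 0 and 1.21 FPKM with PMA and 1.29, 0.511 and 1.85 FPKM in untreated cells, so that 2 PMA libraries were as high as untreated ones and 1 was at 0. LINC02315 and LINC01446 also overlapped between the groups.

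The nearest protein-coding gene was taken from the deposited coordinates and was not used to choose members. The gap had a median of 11.3 kb, with 18 members overlapping their neighbour, a further 12 within 1 kb, 49 in all within 10 kb of it without overlap and 24 over 100 kb. The 140 members had 135 distinct neighbours, of which 103 met the FPKM minimum and were tested. Of these 45 rose and 29 fell (43.7% and 28.2%), against 31.7% and 36.2% of all 11814 protein-coding features tested. Without the overlapping pairs, 39 of 92 rose and 28 fell. The 103 hold 9 neighbours that met the minimum with PMA only and 2 that met it in untreated cells only, whose direction the minimum favours. A count over the 92 neighbours that met it in both groups was therefore added after the data were seen, and 37 of them rose and 27 fell (40.2% and 29.3%), against 28.8% and 37.9% of the 10815 protein-coding features that met it in both groups. Near members with PMA only, 18 of 30 such neighbours rose and 4 fell, near members in both groups 17 of 55 rose and 20 fell, and near members with untreated cells only 3 of 10 rose and 5 fell. Neighbours that overlap their member are kept in here. With neighbours of 1 group kept in, the neighbours of members with PMA only gave 22 higher and 5 lower of 36, and 18 and 4 of 30 without overlaps, a split also chosen after the data were seen. This set of 30 is not the one above, and both limits were not applied together. These counts are a description and the difference from the background was not tested.

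**Figure D4:**
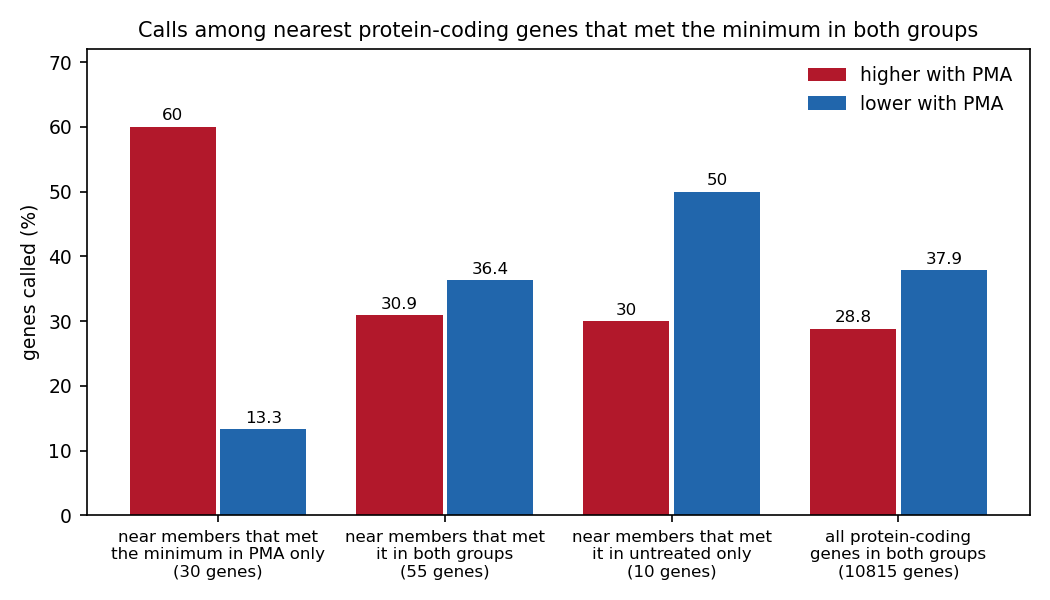
Percent of nearest protein-coding genes called higher and lower with PMA (edgeR, adjusted p under 0.05), by the group in which the LINC member met the minimum, beside all 10815 protein-coding features. Only genes that met the minimum in both groups are drawn, and the neighbours of members with PMA only show 60% higher and 13.3% lower, against 28.8% and 37.9% of all. Neighbours that overlap their member are kept in, and the difference was not tested.

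Several members lay beside a neighbour that moved with them. These pairs were picked with their direction known. LINC01664, LINC02574 and LINC01126 met the minimum with PMA only, so the rule favours their rise. TMEM121B lies 163 bp from LINC01664 and runs away from it. LINC01664 had 0.866, 0.756 and 0.834 FPKM with PMA and 0, 0.0378 and 0.0789 FPKM in untreated cells, and TMEM121B had 17, 14.8 and 14.8 FPKM with PMA and 0.973, 0.715 and 0.640 FPKM in untreated cells, a log2 fold change of 4.31 ± 0.16 (SE, adjusted p = 3.37e-07). LINC02574 overlaps IFI6, an interferon-induced gene that had the largest neighbour change, on the same strand. LINC02574 had 0.843, 2.67 and 2.23 FPKM with PMA and 0.0122, 0 and 0.164 FPKM in untreated cells, and IFI6 had 437, 334 and 337 FPKM with PMA and 6.55, 7.07 and 6.59 FPKM in untreated cells. They share 216 bp, where their reads cannot be told apart, and how far their other reads are distinct was not tested. LINC01126, whose window with the C/EBP letters is shown above, starts 604 bp from ZFP36L2, an mRNA decay factor. LINC01126 had 1.10, 1.44 and 0.935 FPKM with PMA and 0.348, 0.470 and 0.240 FPKM in untreated cells and ZFP36L2 had 106, 128 and 135 FPKM with PMA and 39.1, 44.3 and 37 FPKM in untreated cells (log2 fold change 1.61 ± 0.11 (SE)). LINC01624 had 1.33, 1.39 and 1.33 FPKM with PMA and 0.787, 0.648 and 0.505 FPKM in untreated cells beside the Notch ligand gene DLL1, which had 17.6, 15.1 and 15.3 FPKM with PMA and 1.56, 1.51 and 1.13 FPKM in untreated cells. LINC02918, 678 bp from the neurotrophic factor gene ARTN, had 1.56, 1.64 and 1.30 FPKM with PMA and 0.704, 0.875 and 0.620 FPKM in untreated cells, and ARTN had a log2 fold change of 2.76.

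Other pairs did not move together. The deposited starts of LINC01547 and SLX9 have the 70 bases shown above in capitals between them, and their log2 fold changes were 3.06 and -1.02. LINC01352 had 0.583, 0.820 and 0.874 FPKM with PMA and 0, 0.147 and 0.0221 FPKM in untreated cells and its neighbour MTARC1, 9.60 kb away, had 0.142, 0.168 and 0.144 FPKM with PMA and 0.732, 0.770 and 0.758 FPKM in untreated cells. The minimum, met by LINC01352 with PMA only and by MTARC1 in untreated cells only, favours these directions. LINC00106 rose (log2 fold change 1.00 ± 0.29 (SE)) and ASMTL, 3.74 kb away, fell to 4.39, 4.13 and 4.02 FPKM with PMA, against 8.89, 8.39 and 7.85 FPKM in untreated cells. PATZ1, a transcriptional regulator that starts 431 bp from LINC01521, fell (log2 fold change -1.08 ± 0.10 (SE)), while LINC01521 was not called, with 1.35, 1.29 and 1.41 FPKM with PMA and 0.973, 1.84 and 1.14 FPKM in untreated cells. LINC02798 was not called either (log2 fold change -0.29 ± 0.12 (SE)) beside SRGAP2C, which rose (log2 fold change 0.70). LINC02953 fell (log2 fold change -0.64) and MYEOV, 84.0 kb away, rose by 3.27 on the log2 scale. Across the 56 pairs that did not overlap and whose member met the minimum in both groups, Pearson's r of the log2 fold changes was 0.31 and Spearman's rho 0.29. This is across genes measured in the same 6 libraries, which are not independent. Member and neighbour were both called in 26 of the pairs, 18 in the same direction and 8 in opposite directions. Within 10 kb the numbers were 9 and 4, and beyond 10 kb 9 and 4 as well. The neighbours UBL4B, ANKRD36C, MYEOV and FAM90A1 in these pairs met the minimum in 1 group only, which favours their direction. MYEOV moved against its member, and the other neighbours named moved with theirs.

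**Figure D5:**
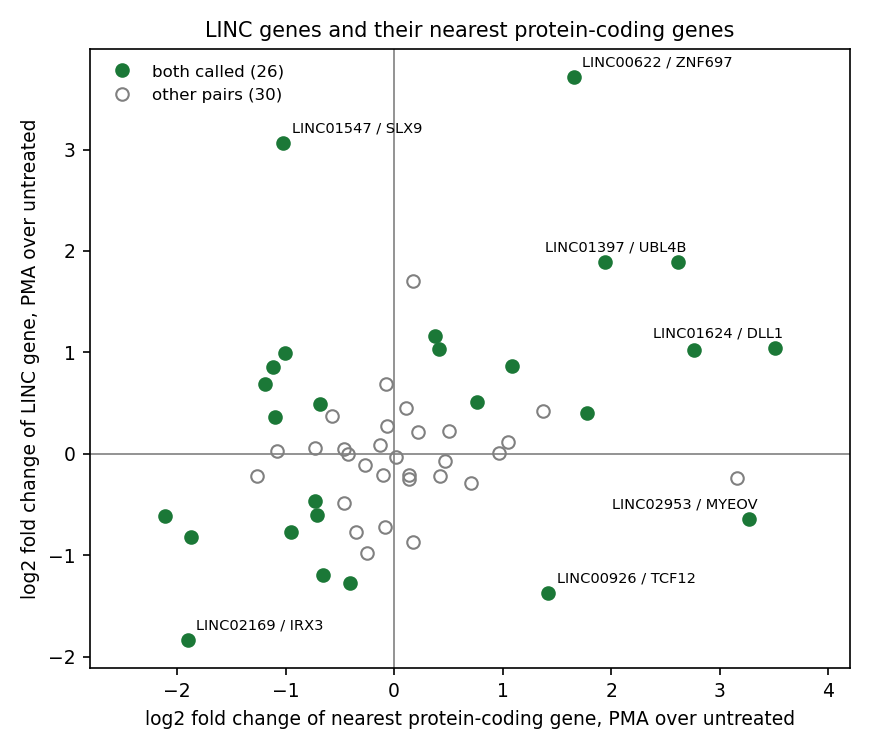
Log2 fold change, PMA over untreated, of 56 LINC members in both groups (vertical) against that of the nearest protein-coding gene (horizontal), pairs without overlap. Filled points are the 26 pairs with both genes called, of which 18 lie in the same direction; LINC01547 with SLX9 and LINC00926 with TCF12 lie in opposite directions.

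Some members lay within 100 kb of another member, and whether such members moved alike was not tested. LINC00662 and LINC02987 overlap on opposite strands of chromosome 19, and LINC02987 was called lower (log2 fold change -0.46 ± 0.15 (SE)) while LINC00662 was not called (log2 fold change 0.06 ± 0.12 (SE)). The difference between them was not tested, and without strand their reads cannot be told apart. LINC02723 and LINC02724 lie 53.2 kb apart on chromosome 11. LINC02724 met the minimum in both groups and was not called, with a log2 fold change of -0.22 ± 0.23 (SE). LINC02723 met it in untreated cells only, so the rule favours its fall. LINC01128 rose (log2 fold change 0.36 ± 0.11 (SE)) 59.6 kb from LINC02593, which averaged 0.430 FPKM with PMA and 0.664 FPKM in untreated cells. LINC02593 also met the minimum in untreated cells only, so the rule favours its fall. LINC01914 and LINC02898, described above, both met it with PMA only, so the rule favours the rise of both.

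A hand-picked list of better known long noncoding RNA genes with other names was read beside the LINC members. Of 57 listed, 55 were in the table and 33 met the minimum in both groups, of which 9 rose, 18 fell and 6 were not called, against 28.3% higher and 35.2% lower among all features that met the minimum in both groups. The median log2 fold change was -0.45 in the list, 0.05 for the 80 LINC members and 0.18 for the 813 other lncRNA features, and the difference of the list from either was not tested. MALAT1, a nuclear speckle RNA, had 44.5, 47.0 and 44.7 FPKM with PMA and 12.2, 11.5 and 11.9 FPKM in untreated cells. NEAT1, the scaffold of paraspeckles, and BISPR, which lies beside the interferon-induced BST2, rose by 1.09 and 2.50 on the log2 scale. All SNHG genes of the list, which host small nucleolar RNAs, fell, from -0.38 for SNHG5 to -1.79 for SNHG8. They made up 11 of the 18 that fell, so the median of the list depends on how many of them were picked. DANCR fell by 2.51. LUCAT1, NRIR and MIR22HG met the minimum with PMA only, NRIR at 11.9, 12 and 9.84 FPKM with PMA and 0.445, 0.393 and 0.315 FPKM in untreated cells.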

How the data were processed

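RNA from 3 PMA-treated and 3 untreated THP-1 libraries was selected on oligo(dT) beads before sequencing, and 1 table of 35424 features was deposited with 2 value columns per library. One of them holds estimated counts, deposited as whole numbers with no scaling. The other holds FPKM as the authors computed it, with fragments scaled to gene length and to depth. DESeq2 and hg38 stand in the submitters' notes on processing. The aligner, the counter, its annotation and whether it used strand were not given in the sources used here.

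Members and gene lists were chosen with earlier results of these data known. Gene types were taken from GENCODE v44, which holds 35397 of the identifiers, and coordinates from the table. edgeR 4.0.16 (R 4.3.3; glmQLFit, glmQLFTest, TMM factors 0.973 to 1.01 over whole library totals, treatment as the only term) was run on the counts of the 14750 features with an FPKM of at least 0.5 in all 3 libraries of 1 group, with Benjamini-Hochberg adjustment over them and calls at an adjusted p under 0.05. Only members that met the minimum in both groups were counted as called. A standard error is the size of the log2 fold change divided by the square root of the F statistic. The script was tested on simulated data. Named members were the 10 with the highest mean FPKM, the 8 largest called rises and falls, the 6 highest with 1 group only in each direction, 2 just inside and 2 just outside the minimum, up to 6 with a called neighbour within 10 kb in each relative direction, and those known for a small protein or a role. Other members named in the report, ITGB2 among the genes beside them, were chosen after their values were seen. Near-identical copies were GENCODE transcripts with at least 95% identity over at least 50% of the longest transcript of a member (BLAST 2.17.0). They belonged to another gene identifier, in some cases under the same symbol.

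Totals of 61547700 to 88227830 counts per library set the depth. Of counts from 3 to 22, 37.2 to 39.1% were multiples of 4, as if 1 read pair gave about 4 counts, so a group without counts was given a floor of 12 counts, 3 such pairs. Most of these counts were not multiples of 4. That 1 read pair gave 4 counts was assumed, and the floor rests on it. Without molecular identifiers, that floor covers only the error of counting. Alternatives tried were DESeq2 1.42.0, other size factors, other filters, limma 3.58.1 on log2 FPKM with a pseudocount of 0.5 or 0.1, a replicate block, leaving out each library, adding PMA replicates 2 and 3 together, other neighbours and leaving out overlaps.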

Additional observations from a re-analysis of the deposited data

How the results depend on the processing

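With a mean FPKM of at least 0.5 over the 6 libraries in place of the minimum in each library of a group, 128 members were counted and 52 were called higher, against 26 of 80, because that filter lets in members that are high in 1 group only. The counts of members, neighbours, all features and other long noncoding RNA genes otherwise stayed within 1.5 times under the alternatives run. Of the 43 calls among the 80 members, 37 to 43 were kept under each alternative and 0 turned direction. Fitting all features without a filter moved the members' log2 fold changes by a median of -0.11, gave 21 higher and 18 lower and kept 37 of the calls, and DESeq2 kept 43 and added 5. LINC02256 (ENSG00000261064), not called, passed when features with 1 FPKM or more in 3 or more libraries were fitted (log2 fold change 0.49, adjusted p = 0.0469), without untreated replicate 1 (0.58, adjusted p = 0.0416) and with DESeq2 (0.47, adjusted p = 0.0292), but not without untreated replicate 3 (0.26, adjusted p = 0.119) or without a filter (0.34, adjusted p = 0.246), and over its 16 alternatives the adjusted p ran from 0.0188 to 0.246. Same-numbered libraries of the groups correlated by 0.34, 0.11 and 0.10 in their deviations from the group means, with the last under 0.1, so numbers were not taken as pairs. Replicate 1 of a group correlated by -0.22 to -0.16 with replicates 2 and 3 of the other. Replicates 2 and 3 correlated across groups by 0.11 and 0.14, so replicate 1 stood apart in both groups. Why it did was not tested. With a replicate block 43 calls were kept and 5 added, with 45 neighbours higher and 32 lower, and LINC02256 passed (0.48, adjusted p = 0.0188). Members at low counts are measured with wide error, and changes of a member under the spread of its replicates were not detectable with 3 libraries a group.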

Other observations

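LINC00623, LINC00869, LINC01138 and LINC01145, all on chromosome 1, were called higher with PMA, with log2 fold changes of 0.93 ± 0.14, 0.81 ± 0.14, 1.09 ± 0.18 and 1.12 ± 0.11 (SE). LINC01632, on the same chromosome, lies 33.5 kb from PPIAL4F, one of the copies of a cyclophilin gene, and averaged 6.14 ± 0.41 FPKM with PMA and 5.49 ± 1.42 FPKM in untreated cells (SD, n = 3 each) and was not called (log2 fold change 0.16 ± 0.21 (SE)). LINC00623 shares near-identical sequence with LINC00869. For LINC01145 only a transcript of 143 nt was compared, and it matches 15 other gene identifiers, LINC01138 among them. LINC01138, with a longest transcript of 2212 nt, had no near-identical copy by the same rule. How far the reads of these genes are distinct was not tested. These genes were picked after their values were seen.

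GENCODE types 7 members as transcribed pseudogenes, and 6 of them met the minimum in both groups. LINC00674, LINC00888, LINC00869 and LINC01145 rose, LINC00680 fell, and LINC01667 was not called, with 2.07 ± 0.23 FPKM with PMA and 1.97 ± 0.29 FPKM in untreated cells (SD, n = 3 each). LINC00888 had 6.03 ± 0.39 FPKM with PMA and 3.81 ± 0.33 FPKM in untreated cells (SD, n = 3 each), a log2 fold change of 0.65 ± 0.13 (SE, edgeR adjusted p = 0.00225).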
